A study of Mus musculus with 2 samples.

Results

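The miR-17-92 and miR-106b-25 clusters are related groups of microRNA genes, and 9 genes make them up among the 2202 microRNA genes annotated in GENCODE M21. Their rule uses gene symbols and no measured value, although it was written with earlier results of these data known. The chromosome 14 cluster holds Mir17, Mir18, Mir19a, Mir20a, Mir19b-1 and Mir92-1, and the cluster in an intron of Mcm7 on chromosome 5 holds Mir106b, Mir93 and Mir25. Their levels come from microRNA sequencing of left cortex tissue, taken from B6CASTF1/J males (F1 hybrids of C57BL/6J and CAST parents) at 36 days of age. The 2 libraries formed 1 group, from animals numbered 3 (replicate 1) and 4 (replicate 2), with no treatment named in the labels and RNA below 30 bases as the stated size range. No comparison between conditions exists. The labels give both libraries the same donor identifier. Because the animal numbers differ, the libraries were treated as coming from separate animals, which was not checked. The p-values below compare these 2 libraries and cover counting error only, so they measure no difference between animals in general.

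A polycistronic microRNA transcript is cut by Drosha into hairpins, and Dicer then releases a short mature strand from either arm. A mature microRNA recognises messenger RNAs mainly through its seed, bases 2 to 8 counted from the 5′ end. The chromosome 14 cluster, also called oncomiR-1, is activated by Myc and E2F factors. Its microRNAs repress the proapoptotic gene Bcl2l11 and the cell cycle inhibitor Cdkn1a. Mcm7, the host of the second cluster, encodes a subunit of the replicative helicase. Both clusters are best known from dividing cells, neural progenitors among them, and their levels are generally described as lower once neurons have matured.

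The mature sequences are shown because they divide the 9 genes into 4 seed groups and because they decide which reads fit a single locus. For each gene the arm usually taken as the main product is given, as listed by RefSeq (GRCm38.p6), with the seed in capitals. Coordinates of all 15 hairpins of these clusters and their X-linked relative were identical in RefSeq and GENCODE.
miR-17-5p (Mir17): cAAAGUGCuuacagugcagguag
miR-20a-5p (Mir20a): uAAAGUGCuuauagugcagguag
miR-93-5p (Mir93): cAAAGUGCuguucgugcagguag
miR-106b-5p (Mir106b): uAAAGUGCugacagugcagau
miR-18a-5p (Mir18): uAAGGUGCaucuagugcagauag
miR-19a-3p (Mir19a): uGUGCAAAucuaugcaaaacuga
miR-19b-3p (Mir19b-1): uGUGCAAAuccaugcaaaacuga
miR-92a-3p (Mir92-1): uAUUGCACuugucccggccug
miR-25-3p (Mir25): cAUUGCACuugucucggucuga
Mir17, Mir20a, Mir93 and Mir106b share the miR-17 seed, which spans both clusters. Mir92-1 and Mir25 share the miR-92 seed, again across both clusters. The miR-18 and miR-19 seeds come from chromosome 14 only, through Mir18 and through Mir19a and Mir19b-1. Counting from the 5′ end, miR-19a-3p and miR-19b-3p differ by U11C, and miR-17-5p and miR-20a-5p by C1U and C12U. Of the 9 main sequences, miR-19b-3p and miR-92a-3p each occur in 2 hairpins of the table, the second copy being Mir19b-2 or Mir92-2 on the X chromosome. The others occur in 1 hairpin each.

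The deposited values are whole-number read counts per gene. Levels are given in CPM, counts on the gene's own strand per 1000000 such counts in the library. A mature microRNA is about the length of a read, so no scaling by gene length was made. Own-strand counts at microRNA genes came to 4273791 in replicate 1 and 4010274 in replicate 2, and 782 genes had counts. Neuronal markers, the check of the labelled tissue, summed to 85535 CPM (replicate 1) and 53459 CPM (replicate 2), with 6 of 9 genes at 10 CPM or more in both. The 3 genes below that level were those of miR-124, with 0 to 20 counts per library. Every gene count lacks the reads with several possible loci, which came to 42.8% (replicate 1) and 39.9% (replicate 2) of the reads. In bulk tissue, fewer cells that express a microRNA and less of it per cell cannot be told apart.

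Both clusters were present, and 7 of the 9 genes reached 10 CPM in both libraries. Together the 9 genes took 12083 counts in replicate 1 and 14222 counts in replicate 2, or 2827 and 3546 CPM. That was 0.283% of the own-strand counts in replicate 1 and 0.355% in replicate 2. The Mcm7-intron cluster reached 1666 CPM in replicate 1, 2222 CPM in replicate 2 and a mean of 1944 ± 393 CPM (SD, n = 2). The chromosome 14 cluster reached 1162 and 1325 CPM, a mean of 1243 ± 115 CPM (SD, n = 2). The smaller cluster, with 3 genes, was 1.43 times as high as the 6-gene cluster in replicate 1 and 1.68 times as high in replicate 2. These sums were not tested. The comparison is of reads with a single locus: on chromosome 14 the mature sequences of Mir19b-1 and Mir92-1 also fit an X-linked hairpin, while those of the 3 Mcm7 genes occur in 1 hairpin each, so reads of those shared strands may be missing from the chromosome 14 sum. The size of that loss was not tested.

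**Figure D1:**
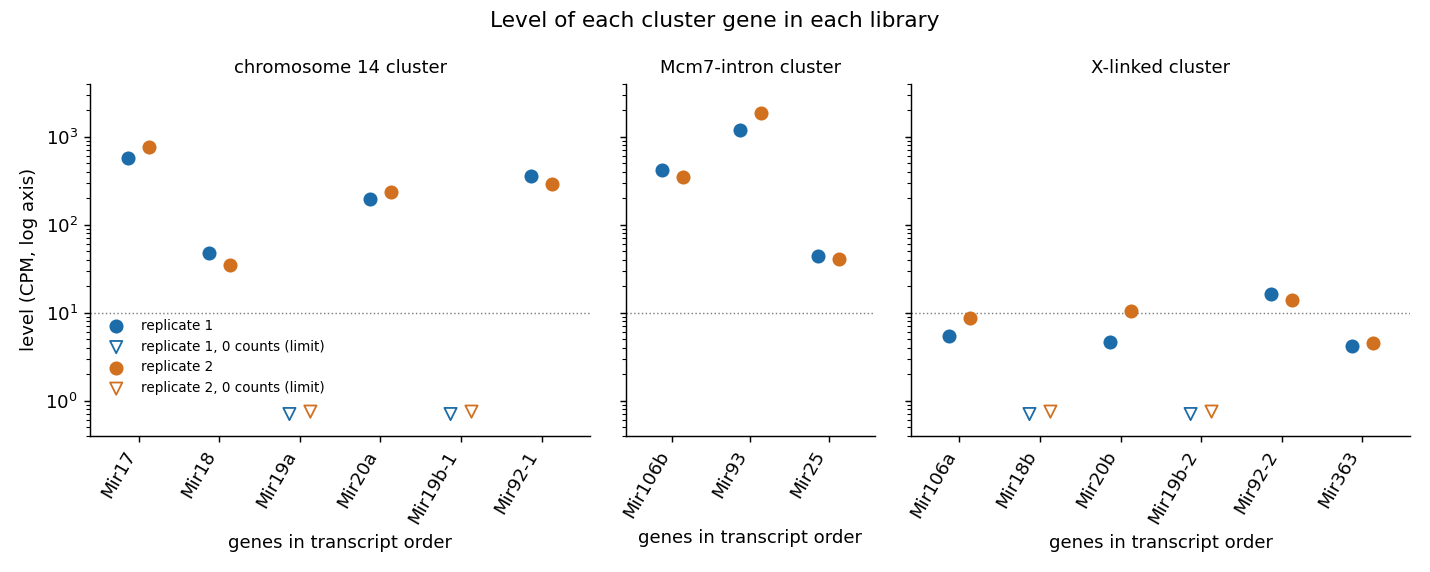
Level of each gene in CPM (log axis) in replicate 1 and replicate 2 for the chromosome 14, Mcm7-intron and X-linked clusters, with genes in transcript order; open triangles mark genes with 0 counts at the limit that 0 counts allow (0.702 and 0.748 CPM), and the dotted line marks 10 CPM. Mir93 lies highest at 1203 and 1836 CPM, and Mir19a and Mir19b-1 have no counts.

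Within the miR-17 seed group, Mir93 was the most abundant of the 9 genes. It lies in the Mcm7 cluster at chr5:138165523-138165610 on the minus strand (mm10) and had 5141 counts in replicate 1 and 7363 counts in replicate 2, or 1203 and 1836 CPM. That placed it at rank 81 among all genes by mean level (1519 ± 448 CPM, SD, n = 2). Mir17, the first hairpin of the chromosome 14 transcript (chr14:115043671-115043754, plus strand), had 2419 and 3069 counts, or 566 and 765 CPM. It ranked 118. Mir106b, the first hairpin of the Mcm7 cluster (chr5:138165737-138165818), had 1789 and 1382 counts, or 419 and 345 CPM. Mir20a (chr14:115044157-115044263) had 831 and 942 counts, or 194 and 235 CPM. The order Mir93, Mir17, Mir106b, Mir20a was the same in both libraries, and no neighbouring genes in it overlapped in level.

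The miR-92 seed group was represented by Mir92-1, the last hairpin of the chromosome 14 transcript (chr14:115044427-115044506), with 1510 counts in replicate 1 and 1162 counts in replicate 2. These are 353 and 290 CPM. Its level in replicate 1 lay above that of Mir106b in replicate 2, so these neighbours in rank overlapped. Mir25, the last hairpin of the Mcm7 cluster (chr5:138165321-138165404), had 188 and 165 counts, or 44.0 and 41.1 CPM. Mir18, the second hairpin of the chromosome 14 transcript (chr14:115043851-115043946), had 205 and 139 counts, or 48.0 and 34.7 CPM. Mir25 and Mir18 overlapped in level and stood far below the other 5 genes detected.

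The miR-19 seed group had no counts at all. Mir19a (chr14:115044000-115044081) and Mir19b-1 (chr14:115044305-115044391) had 0 counts on the own strand and 0 on the opposite strand in both libraries. At these depths, 0 counts leave room for a level of 0.702 CPM (replicate 1) or 0.748 CPM (replicate 2), with counting error alone considered. Mir20a, which lies between them at gaps of 75 and 41 bases, stood at 194 and 235 CPM. For Mir19b-1 the mature sequence also fits Mir19b-2, which likewise had 0 counts, and reads that fit both are missing from the table. The mature sequence of Mir19a occurs in no other hairpin of the table and in no GENCODE M21 transcript outside its own gene and the host transcript Mir17hg. Whether its reads were discarded, for example through mismatches to miR-19b, was not tested.

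The absence of Mir19a counts was set against other genes by a rule chosen after its value was seen. Of 104 genes with a mature sequence of their own and a same-strand gene of 100 CPM or more within 10 kb, 5 (4.81%) had 0 counts in both libraries. Mir19a was 1 of them. The others were Mir453, Mir654 and Mir432 on chromosome 12 and Gm24572 on chromosome 16. Among all 924 genes with a mature sequence of their own, 34.1% had 0 counts in both libraries.

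The position of a hairpin did not order the levels. The 6 chromosome 14 hairpins span 836 bases, all in exon 2 of 2 of Mir17hg, the noncoding host transcript, with gaps of 35 to 96 bases between them. The 3 Mcm7 hairpins span 498 bases in intron 13 of 14 of the annotated Mcm7 transcript with the longest span. In a shorter Mcm7 transcript, Mir93 and Mir25 lie in an exon. The middle hairpin, Mir93, gave 72.2% of the Mcm7 cluster's counts in replicate 1 (exact 95% binomial interval 71.2 to 73.3) and 82.6% in replicate 2 (81.8 to 83.4). It stood 2.87 and 5.33 times above Mir106b and 27.3 and 44.6 times above Mir25 in replicates 1 and 2.

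On chromosome 14, Mir17 gave 48.7% of the cluster's counts in replicate 1 (47.3 to 50.1) and 57.8% in replicate 2 (56.4 to 59.1). Mir92-1 gave 30.4% (29.1 to 31.7) and 21.9% (20.8 to 23.0). Mir20a gave 16.7% (15.7 to 17.8) and 17.7% (16.7 to 18.8). Mir18 gave 4.13% (3.59 to 4.72) and 2.62% (2.20 to 3.08). The intervals of Mir17, Mir92-1 and Mir18 did not overlap between the libraries, while those of Mir20a did. These intervals cover counting error only. By the exact test described below, 79.9% of the 309 genes with 100 or more counts together differed between these libraries. A lack of overlap was therefore not read as a trait of this cluster. Mir17 was 1.60 times as high as Mir92-1 in replicate 1 and 2.64 times in replicate 2. Reads of miR-92a-3p and miR-19b-3p that fit several loci are missing from these counts. The Mir92-1 share may thus be too low and the shares of Mir17, Mir20a and Mir18 too high, by an amount that was not tested.

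**Figure D2:**
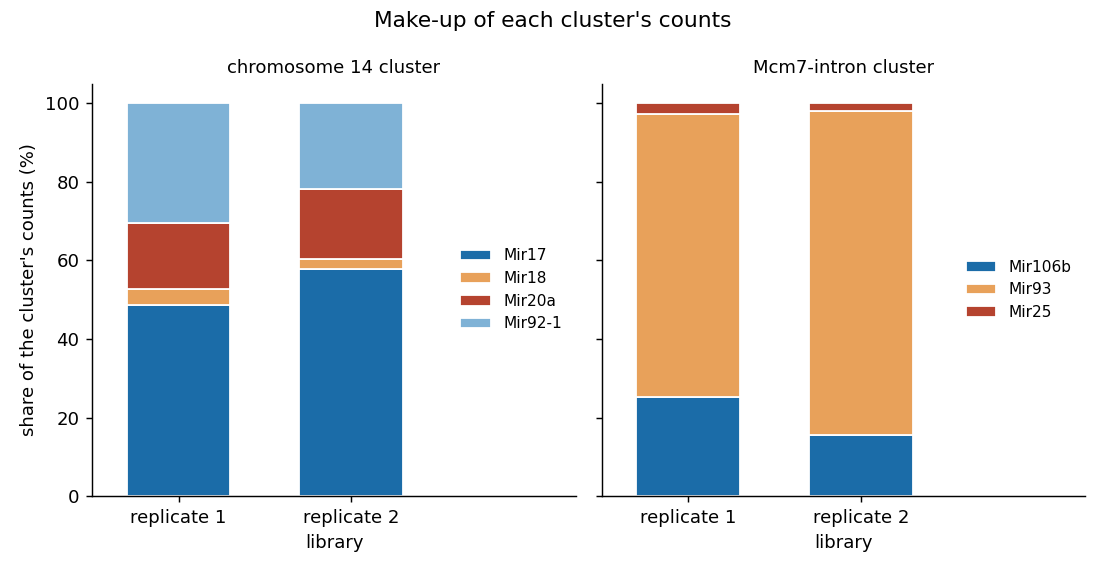
Share of each cluster's counts (percent, linear axis) given by each gene in replicate 1 and replicate 2, for the chromosome 14 cluster (left) and the Mcm7-intron cluster (right). Reads that fit several loci, such as those of miR-92a-3p, are not counted. Mir93 takes 72.2% and 82.6% of the Mcm7 cluster and Mir17 48.7% and 57.8% of the chromosome 14 cluster; Mir19a and Mir19b-1 have no counts and are not drawn.

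Genes were grouped by the seed of the main arm, but gene counts hold both arms together, and the other arm has another seed. The level of the strand with the seed was therefore not measured alone. By seed, the 4 genes with the miR-17 seed gave 2382 CPM in total in replicate 1 and 3181 CPM in replicate 2. They made up 99.6% and 99.4% of the level of all 7 genes with that seed. Mir18 was the only counted gene of the 2 with its seed. Mir92-1 and Mir25 together gave 397 and 331 CPM, 7.21% and 8.39% of the 5510 and 3944 CPM from all 7 genes with that seed. Nearly all of the rest came from Mir92b, a gene of chromosome 3 outside the clusters (chr3:89227116-89227198), with 21709 and 14335 counts or 5080 and 3575 CPM.

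Mir92b was 14.4 times as high as Mir92-1 in replicate 1 and 12.3 times in replicate 2, and 115 and 86.9 times as high as Mir25. Its mature sequence differs from that of Mir92-1 outside the seed and occurs in a single gene, whereas that of Mir92-1 is shared with Mir92-2, so the Mir92-1 count may lack reads.
miR-92b-3p (Mir92b): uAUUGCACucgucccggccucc
miR-92a-3p (Mir92-1 and Mir92-2): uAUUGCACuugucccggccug
Mir32, another gene with the miR-92 seed, stood at 12.9 and 20.4 CPM. Mir367, of pluripotent cells, had 0 counts in both libraries, as did Mir6383 of the miR-17 seed group.

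**Figure D3:**
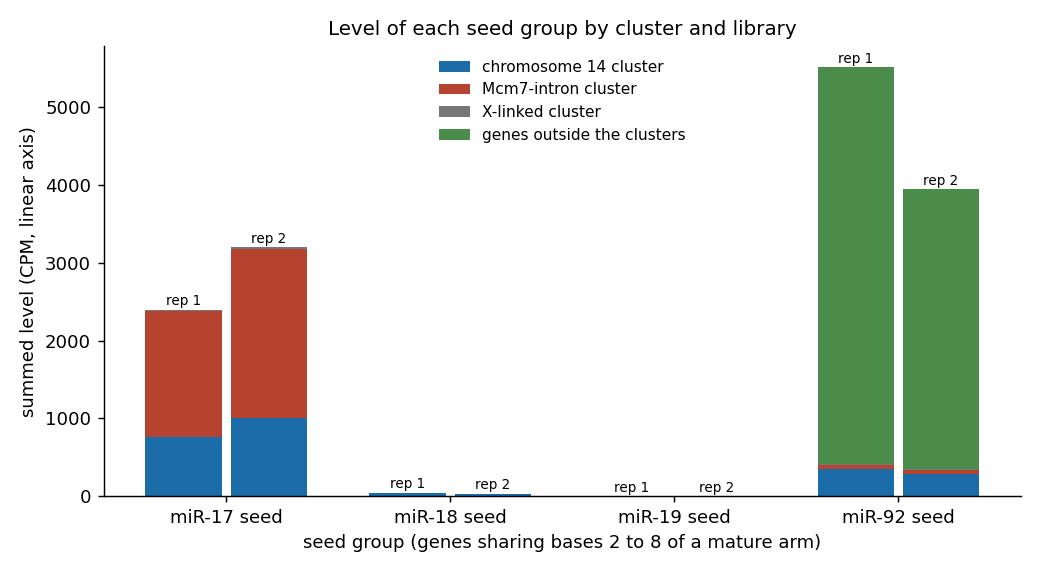
Summed level (CPM, linear axis from 0) of all genes sharing each of the 4 seeds, with bars for replicate 1 (left) and replicate 2 (right), coloured by cluster. The level of genes with the miR-17 seed comes almost wholly from the Mcm7 and chromosome 14 clusters (2382 and 3181 CPM from the 4 genes). Mir92b outside the clusters gives most of the level of genes with the miR-92 seed. Gene counts hold both arms together, so the strand with the seed was not measured alone.

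A related cluster with the same ancestry lies on the X chromosome (chrX:52741693-52742567) and holds Mir106a, Mir18b, Mir20b, Mir19b-2, Mir92-2 and Mir363. It summed to 130 counts in replicate 1 and 150 counts in replicate 2, or 30.4 and 37.4 CPM. The chromosome 14 cluster was 38.2 and 35.4 times as high, and the Mcm7 cluster 54.8 and 59.4 times. In reads with a single locus, the difference held at each position with counts. Mir17 had 105 and 87.7 times the counts of Mir106a (23 and 35 counts), whose mature sequence differs from miR-17-5p by U10A alone. Mir20a had 41.5 and 22.4 times the counts of Mir20b (20 and 42 counts). Mir92-1 had 21.9 and 21.1 times the counts of Mir92-2 (69 and 55 counts). Reads of their shared mature strand that fit both loci are missing from both counts, so this ratio leaves them out.

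Mir18 was at least 68.3-fold higher than Mir18b in replicate 1 and at least 46.3-fold higher in replicate 2, against a floor of 3 counts per library, since Mir18b had 0 counts. Mir363, which has no counterpart on chromosome 14, had 18 counts in each library. The Mir19b pair had 0 counts on both chromosomes. The miR-92a pair is shown to mark what its copies share. Capitals mark the longest common stretch of the 2 hairpins, 22 bases that hold the whole of miR-92a-3p, so a read of the mature strand alone fits both loci.
Mir92-1 hairpin: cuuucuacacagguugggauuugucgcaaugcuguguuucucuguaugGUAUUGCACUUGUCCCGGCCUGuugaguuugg
Mir92-2 hairpin: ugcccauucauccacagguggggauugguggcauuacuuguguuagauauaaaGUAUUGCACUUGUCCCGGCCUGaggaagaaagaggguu
The counts of these genes come from reads that mapped once, and both arms are counted together, so which parts of the hairpins they cover cannot be read from the tables.

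Between the libraries, the members of each cluster differed in direction, as genes over the whole table did. Each gene with 10 or more counts together was compared by a two-sided exact binomial test, with p-values adjusted over all 516 such genes after Benjamini and Hochberg. Of the 7 members tested, 3 were higher and 3 lower in replicate 1 at an adjusted p under 0.05. Of all tested genes 57.9% were called, 30.4% higher and 27.5% lower, and of the 309 genes with 100 or more counts 79.9% were called. All 7 members tested have such counts, and 6 of 7 is near that share. Since both directions were about as common over all tested genes, the mix of directions is not particular to the members. The test covers counting error and compares these libraries only. Log2 ratios are replicate 1 over replicate 2, and the members' median absolute log2 ratio was 0.31, against 0.46 over the 309 genes.

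Lower in replicate 1 were Mir93, Mir17 and Mir20a. Mir93 had a log2 ratio of -0.65 (exact 95% interval -0.70 to -0.60; exact binomial adjusted p = 2.63e-137). Mir17 had a log2 ratio of -0.48 (-0.55 to -0.40; exact adjusted p = 2.21e-33), and Mir20a of -0.31 (-0.45 to -0.18; exact adjusted p = 1.44e-05). Higher in replicate 1 were Mir18, at 0.43 (0.11 to 0.75; exact adjusted p = 0.0135), Mir92-1, at 0.25 (0.13 to 0.36; exact adjusted p = 3.12e-05), and Mir106b, at 0.24 (0.14 to 0.34; exact adjusted p = 8.47e-06). Mir25 was not called, at 0.06 (-0.25 to 0.37; exact adjusted p = 0.839). Each cluster held genes that were higher and genes that were lower in replicate 1, with intervals that did not overlap. The log2 ratio of no member exceeded 1 in size, and that of only 54 of the 309 genes did. Whether the members differ from the other genes in the size of their ratios was not tested.

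Directions were mixed in the miR-17 seed group as well, where Mir106b went against the other 3 genes. A feature noticed after the values were seen is the 3′ end of the mature strand. Mir17, Mir20a and Mir93, from both clusters, end in GCAGGUAG, marked by capitals here, while Mir106b and Mir18 do not.
miR-17-5p: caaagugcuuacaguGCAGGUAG
miR-20a-5p: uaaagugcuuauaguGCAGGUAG
miR-93-5p: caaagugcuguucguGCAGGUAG
miR-106b-5p: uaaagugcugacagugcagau
miR-18a-5p: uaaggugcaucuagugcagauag
In the whole table this ending occurs in 3 further mature sequences, of Mir20b, Mir106a and Mir7239. Mir20b had 20 counts in replicate 1 and 42 counts in replicate 2, a log2 ratio of -1.20 (-2.05 to -0.40). Mir106a had 23 and 35 counts, a log2 ratio of -0.74 (-1.56 to 0.06), which was not called (exact binomial adjusted p = 0.105). Mir7239 had 1 and 0 counts. The ending was picked from these same ratios, and 27.5% of all tested genes were called lower in replicate 1. Mir92-1 and Mir25, not shown here, also lack the ending. Mir20b and Mir106a are the X-linked relatives of Mir20a and Mir17, so they are not separate cases. The ratios are of gene counts with both arms together, not of the strand shown. Because the ratios chose the ending, they cannot test it, and a link between the ending and the ratios was not tested. Of the other genes with a shared seed, Mir92b was higher in replicate 1 at 0.47 (0.44 to 0.50) and Mir32 lower at -0.71 (-1.23 to -0.20).

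**Figure D4:**
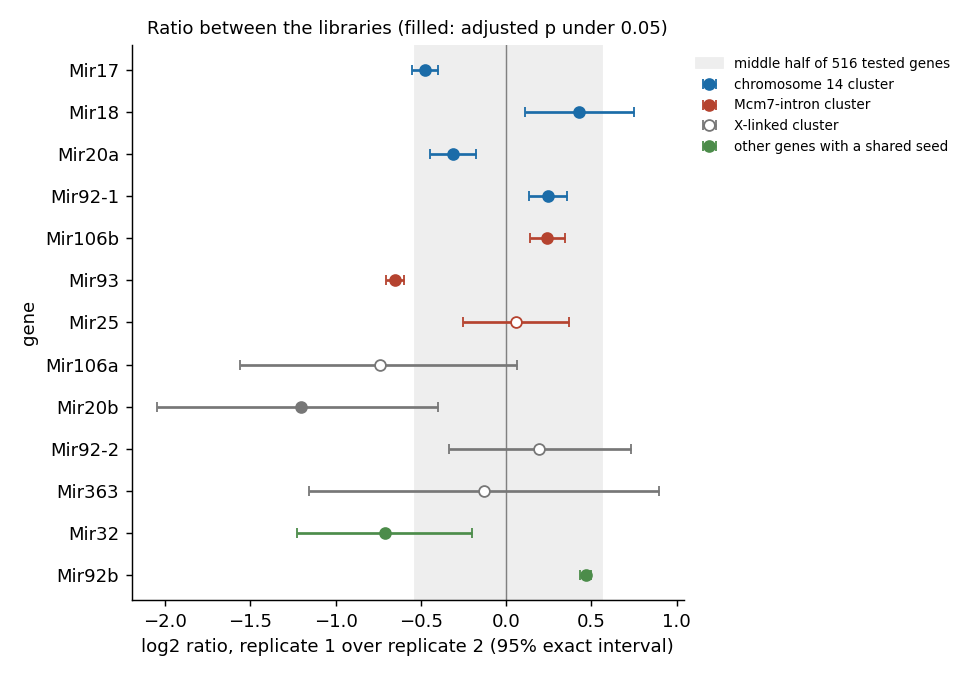
Log2 ratio of replicate 1 over replicate 2 with exact 95% intervals for the 7 counted members, the X-linked genes with counts, Mir32 and Mir92b; filled points have an adjusted p under 0.05 and the grey band holds the middle 50% of the 516 tested genes (-0.53 to 0.56). Mir93, Mir17 and Mir20a lie left of 0, and Mir18, Mir92-1 and Mir106b right of it.

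Markers of other cell types were read in the same libraries. The red-cell list (Mir144, Mir451a and Mir486, of which 2 were detected) came to 83.5 CPM (replicate 1) and 794 CPM (replicate 2), and Mir451a alone gave 47.0 and 726 CPM. The sum of the neuronal list was higher in replicate 1, as given above, mainly through Mir132 at 54937 and 30022 CPM, while Mir138-1 stood at 5292 and 7354 CPM and Mir138-2 at 3138 and 3610 CPM. Endothelial Mir126a stood at 11394 and 10799 CPM, and the leukocyte and microglia list at 2164 and 1989 CPM with 3 of 4 genes detected. The oligodendrocyte list stood at 5098 and 3543 CPM (2 of 3 genes detected), the mural list at 5178 and 7691 CPM (2 of 2) and the epithelial list at 138 and 386 CPM (3 of 5). Not every gene followed its sum. Mir486 of the red-cell list stood at 26.7 and 22.9 CPM, and Mir145a of the mural list at 286 and 208 CPM. Mir200b of the epithelial list stood at 69.7 and 54.6 CPM, and Mir219a-1 of the oligodendrocyte list at 5.62 and 8.73 CPM. In the leukocyte and microglia list, Mir146 stood at 773 and 858 CPM. Mir223 of that list, higher in replicate 1 like its sum, stood at 16.4 and 0.499 CPM. The pluripotent list held no detected gene, at 1.87 and 3.24 CPM, with 6 of 11 genes at 0 counts in both. The part of these cells in the levels of the 9 genes was not tested.

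The genes nearest in level were taken as those at the smallest distance in log2 CPM over the 2 libraries, among 300 genes at 10 CPM or more in both. For Mir17 these were Mir7689 (589 CPM in replicate 1 and 722 CPM in replicate 2), Mir673 (563 and 681 CPM) and Mir296 (504 and 713 CPM), at distances of 0.10, 0.17 and 0.20. For Mir93 they were Mir130a (1233 and 1591 CPM), Mir341 (1382 and 1748 CPM) and Mir1839 (1570 and 1987 CPM), at distances of 0.21, 0.21 and 0.40. None of them belongs to the clusters, and likeness over 2 libraries is a description of level only.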

How the data were processed

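Per the text files deposited beside the tables, reads were mapped to mm10 and annotated with GENCODE M21. The deposited tables hold whole-number read counts per gene, not normalized; aligner and counter: not given in the sources used here. Without a header, the columns were read as unstranded, own-strand and opposite-strand counts, and own-strand counts were used. Entries that name no gene (42.8% and 39.9% multi-mapped, 16.7% and 20.9% unmapped, 4.56% and 4.39% outside microRNA genes in replicates 1 and 2) stayed out of totals and tests. All 2202 identifiers matched GENCODE. CPM and exact binomial tests used Python 3.11.15 and SciPy 1.17.1, with TMM effective library sizes computed over genes with 10 or more counts (edgeR 4.0.16, R 4.3.3). Since 1 group leaves no contrast, no edgeR test was run. The coefficient of variation between libraries, from edgeR's common dispersion, was 43.7%. The test was checked on simulated data drawn with counting error only. It called 91 of 100 genes changed 2-fold, 59 of 100 changed 1.25-fold and 4 of 306 unchanged genes. The simulation held no further variation between libraries, so it cannot show how the test behaves under the variation seen here. Also tried were size factors from DESeq2 1.42.0, total counts, other minimums, unstranded counts, other totals and single libraries. Named genes were the members, the X-linked cluster, genes sharing a seed with 10 or more counts, the 3 genes nearest in level to the leading member of each cluster, and cell markers; any other gene is named because its count of 0, or a rule chosen after values were seen, brought it in. The members and lists were chosen with earlier results of these data known.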

Additional observations from a re-analysis of the deposited data

Results flagged for a closer look

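Data that no comparison uses were flagged where they held more than 3 reads. The share of reads that fit several loci was 42.8% (replicate 1) and 39.9% (replicate 2). The share with a single locus but no microRNA gene there was 4.56% (replicate 1) and 4.39% (replicate 2). Reads of miR-19b-3p and miR-92a-3p that fit both of their loci would stand among those with several loci, and their number was not tested.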

How the results depend on the processing

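The counts of members called (6, with 3 higher and 3 lower in replicate 1) were the same with DESeq2 size factors, total counts, no minimum, a minimum of 100 counts, unstranded counts and, added after seeing the data, TMM over all genes. All 42 log2 ratios of members under these alternatives kept their direction and their side of the threshold. Scaled to 1000000 of all reads in the table, the sums were 439 for the chromosome 14 cluster, 686 for the Mcm7-intron cluster, 12.0 for the X-linked cluster, and 981, 14.6 and 129 for members with the miR-17, miR-18 and miR-92 seeds, since a larger total divides them. Without the most abundant gene in the total, every sum rose, since a smaller total divides them. The chromosome 14 cluster went from 1243 to 1391 CPM, the Mcm7-intron cluster from 1944 to 2171 CPM and the X-linked cluster from 33.9 to 37.9 CPM. The change is thus not particular to the chromosome 14 cluster. At 100 CPM in both libraries, 5 members were detected. No paired analysis was possible because there is 1 group. Depth limits the X-linked genes, with 69 counts or fewer per library, and 2 libraries limit any statement about animals.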
